A study of Arabidopsis thaliana with 6 samples.

Results

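The genes described here are the 3 subclass III SnRK2 kinases of Arabidopsis (SnRK2.2, SnRK2.3 and SnRK2.6, also named OST1) and 5 group A bZIP transcription factors (ABF1, ABF2, ABF3, ABF4 and ABI5). They were taken by gene identifier and are 8 of the 27372 genes in the table. Earlier results of these data were known when these genes were chosen. All 8 were expressed above the filter (averaging 0.5 FPKM or more over the samples) and were among the 19839 genes tested. FPKM (the number of sequenced fragments, divided by transcript length and by library size) takes transcript length into account, so levels of different genes can be set side by side. RNA came from whole seedlings of the *fer-4* mutant (3 libraries) and of wild type Col-0 (3 libraries). Both genotypes grew on agar plates in long days under moderate light (ML), were 7 days old and were collected 3 h after lights on (ZT 3). *fer-4* is a single mutant line that lacks *FERONIA* (*FER*), a receptor-like kinase gene, and the comparison asks which transcripts differ in this mutant under ML. Every sample had the same light, so no response to light was measured. The paper describes *fer-4* seedlings of this age and light as severely damaged. Differences that come with this damage and differences due to the loss of FER itself cannot be told apart here.

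Abscisic acid (ABA) is the plant hormone of drought, salt and seed dormancy. When ABA binds its PYR/PYL receptors, these block the clade A PP2C phosphatases that otherwise keep SnRK2 kinases inactive. The released kinases, activated with the help of RAF-type kinases, phosphorylate ABF factors, which bind the ABA-responsive element (ABRE) of target promoters, and in guard cells SnRK2.6 also phosphorylates ion channels and NADPH oxidases. Kinase activity and factor phosphorylation are set on the proteins, and mRNA levels do not measure them.

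*FER* was at 0.0905, 0.0270 and 0.0438 FPKM in *fer-4*, against 56.5, 62.6 and 64.6 FPKM in Col-0, which fits the labels. The limma test on log2(FPKM + 0.1), with Benjamini-Hochberg adjustment over all genes tested, called 3569 genes (18.0%) higher and 3170 (16.0%) lower in *fer-4* at an adjusted p under 0.05. After quantile normalization the split was 3064 higher and 4203 lower. The median log2 fold change of all genes tested was -0.01. Over all genes tested, Col-0 replicate 3 was the lowest Col-0 library for 31.6% and the highest for 39.9%, whereas it was the lowest for 6 of the 8 members and for 18 of the 20 ABRE output genes tested. The members and lists that were called are therefore also given without it where that moves a call or a value. Per-sample values below follow the order of replicates 1, 2 and 3.

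Of the 8 members, 2 fell in *fer-4*, *ABF2* and *ABF3*, and 0 were called higher. The *fer-4* mean was 0.490 of the Col-0 mean for *ABF2* and 0.466 for *ABF3*. The 3 kinases, *ABF1*, *ABF4* and *ABI5* did not pass the test. A count of 2 of 8 stands beside 16.0% of all genes tested that were lower, so the count by itself does not set the group apart. At an unadjusted p under 0.05, 0 members were higher and 3 were lower, the third being *SnRK2.3*. The shares of 18.0% higher and 16.0% lower over all genes tested are at an adjusted p under 0.05. No such share at an unadjusted p is given, so the unadjusted counts here and below have no background. All 3 *fer-4* libraries lay below all 3 Col-0 libraries for 3 members, against 25.1% of all genes tested, and above them for 0 members, against 26.1%. In whole seedlings, fewer cells of a type that expresses a gene and less mRNA per cell cannot be told apart.

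**Figure D1:**
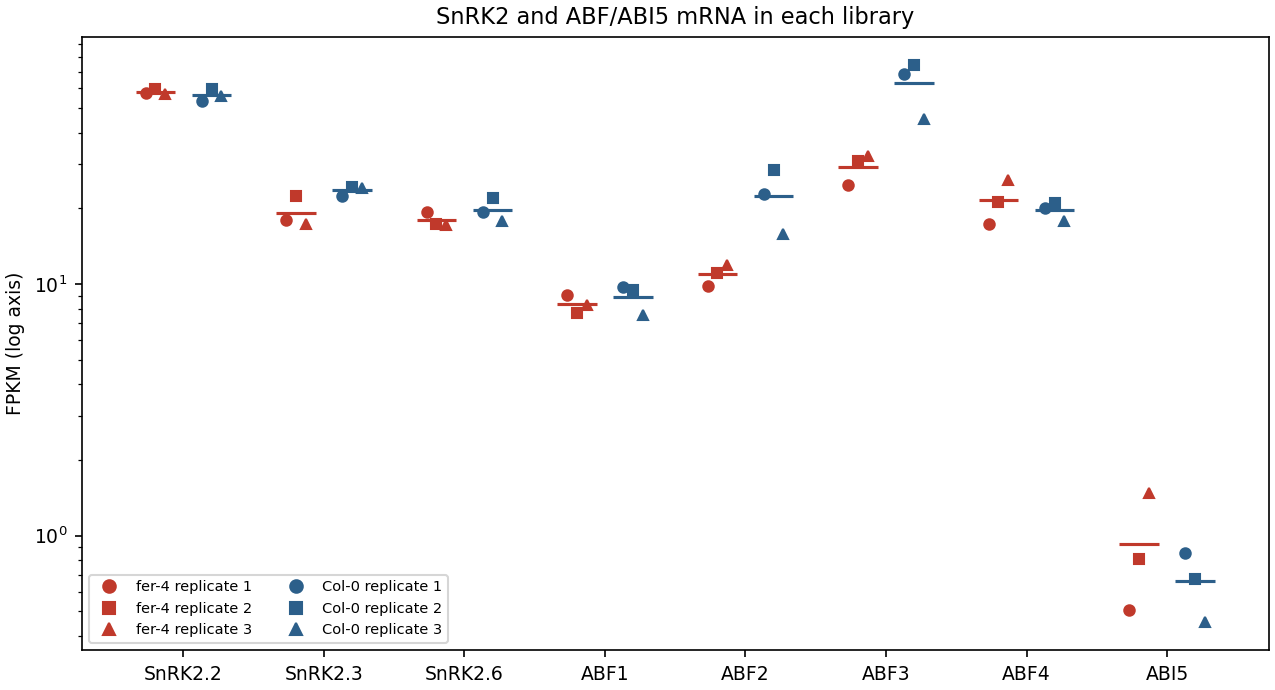
FPKM (log axis) of the 8 genes in each library, with *fer-4* in red to the left of Col-0 in blue, 1 symbol per replicate and a line at each mean. The *fer-4* points of *ABF2* (9.85 to 11.9 FPKM) and *ABF3* (24.8 to 32.3 FPKM) lie below every Col-0 point, and the groups overlap for *SnRK2.2*, *SnRK2.6*, *ABF1*, *ABF4* and *ABI5*.

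Among the kinases, *SnRK2.2* (AT3G50500, chromosome 3, positions 18741444 to 18744174, minus strand, with these and later positions from RefSeq's TAIR10.1 annotation) was the most abundant. SnRK2.2 acts with SnRK2.3 in ABA responses of seeds and roots. It was at 57.3, 59.8 and 56.8 FPKM in *fer-4* and at 53.6, 59.4 and 55.8 FPKM in Col-0, ranges that overlap. Its log2 fold change of 0.04 (SE 0.08, 95% interval -0.14 to 0.22, limma adjusted p = 0.698) has an interval that spans only changes smaller than the estimates for *ABF2* and *ABF3*. Its sign turned under other scalings of the libraries, to -0.055 with quantile normalization and -0.012 with median scaling. The gene lies 373 kb from *FER* on the same chromosome.

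*SnRK2.3* (AT5G66880, chromosome 5, positions 26710302 to 26712971, plus strand) is the closest relative of SnRK2.2. It was at 18.1, 22.4 and 17.4 FPKM in *fer-4* and at 22.5, 24.3 and 24.2 FPKM in Col-0. All *fer-4* libraries were below all Col-0 libraries, but *fer-4* replicate 2 was below the lowest Col-0 library by little. The log2 fold change of -0.30 (SE 0.11, 95% interval -0.56 to -0.05) had an adjusted p of 0.0675 from limma and did not pass. It passed with quantile normalization (adjusted p = 0.0348 from limma), with median scaling (adjusted p = 0.0380 from limma) and without *fer-4* replicate 2 (log2 fold change -0.41, adjusted p = 0.0128 from limma), so its call depends on the scaling and on 1 library. The transcripts of *SnRK2.2* and *SnRK2.3* share an exact stretch of 45 bases, the longest between any pair of the 8, and how fragments from it were assigned was not stated in the methods or labels.

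*SnRK2.6* (AT4G33950, chromosome 4, positions 16271745 to 16274825, plus strand) encodes the kinase that drives stomatal closure in guard cells. It was at 19.3, 17.3 and 17.2 FPKM in *fer-4* and at 19.4, 22.0 and 17.8 FPKM in Col-0, and the groups overlap. Its log2 fold change was -0.13 (SE 0.11, 95% interval -0.37 to 0.11, limma adjusted p = 0.370). *SnRK2.6* ends 20.5 kb before the start of *ABF3* on chromosome 4, a gene that did fall.

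The summed level of the 3 kinases was 94.7, 99.5 and 91.4 FPKM in *fer-4* and 95.5, 106 and 97.8 FPKM in Col-0. The means were 95.2 ± 4.06 FPKM in *fer-4* and 99.7 ± 5.40 FPKM in Col-0 (SD, n = 3 each, exact permutation p = 0.4, 2-sided). With 3 samples against 3 this test has 20 regroupings and cannot go below 0.1. With median scaling the difference was -8.20 FPKM, against -4.47 FPKM unscaled, and its exact permutation p was 0.1. Within that sum, *SnRK2.2* held 60.5%, 60.1% and 62.1% in *fer-4*, against 56.1%, 56.2% and 57.0% in Col-0. The share of *SnRK2.3* was 19.1%, 22.5% and 19.0% in *fer-4* and 23.6%, 23.0% and 24.8% in Col-0. Neither share overlapped between the genotypes, and *SnRK2.6* held 17.4% to 20.4% in *fer-4* and 18.2% to 20.8% in Col-0, where they did. The shares were described and not tested. Shares of the same sum depend on each other, and the share of *SnRK2.2* was higher in *fer-4* while its level overlapped with Col-0.

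Among the transcription factors, *ABF3* (AT4G34000, chromosome 4, positions 16295334 to 16298285, plus strand) changed most. ABF3 activates ABA-responsive genes in vegetative tissue under drought, together with ABF2 and ABF4. It was at 24.8, 30.8 and 32.3 FPKM in *fer-4*, against 68.7, 74.6 and 45.5 FPKM in Col-0. Col-0 replicate 3 was the lowest wild type library and still lay above the highest *fer-4* library. The log2 fold change was -1.08 (SE 0.19, 95% interval -1.51 to -0.64, limma adjusted p = 0.00338), and *ABF3* was the 1 member to pass the stricter threshold of a limma adjusted p of at most 0.01 with at least a 2-fold difference, as did 2.53% of all genes tested in this direction. That stricter call was lost without *fer-4* replicate 1 or 2 or Col-0 replicate 1 or 2, where the log2 fold change was -1.12 to -0.94. Without Col-0 replicate 3 it was -1.29 (SE 0.14, limma adjusted p = 7.1e-04). The level stood above 73.1% of all genes tested in *fer-4* and above 87.3% in Col-0.

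*ABF2* (AT1G45249, also named AREB1, chromosome 1, positions 17165125 to 17167924, minus strand) fell by nearly the same factor. It was at 9.85, 11.1 and 11.9 FPKM in *fer-4*, against 22.9, 28.4 and 15.8 FPKM in Col-0. The groups did not overlap, and the order of the Col-0 libraries (replicate 2 highest, replicate 3 lowest) was that of *ABF3*. The log2 fold change was -0.99 (SE 0.20, 95% interval -1.44 to -0.53, limma adjusted p = 0.00630), just short of 2-fold, and *ABF2* also passed the stricter threshold with quantile normalization (-1.05) or median scaling (-1.04). Without Col-0 replicate 3 it was -1.22 (SE 0.14, limma adjusted p = 0.00109), and without Col-0 replicate 2 it was -0.79 (limma adjusted p = 0.0184). *ABF3* held 2.52, 2.79 and 2.71 times the level of *ABF2* in *fer-4* and 3.00, 2.63 and 2.89 times in Col-0, so the ratio of the pair overlapped between the genotypes while both levels were lower in *fer-4*.

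*ABF4* (AT3G19290, also named AREB2, chromosome 3, positions 6687042 to 6690123, plus strand) acts with ABF2 and ABF3 in drought responses, but its mRNA did not pass the test. It was at 17.3, 21.3 and 25.9 FPKM in *fer-4* and at 20.1, 21.1 and 17.8 FPKM in Col-0. *fer-4* replicate 1 was the lowest of all 6 libraries and *fer-4* replicate 3 the highest. The log2 fold change was 0.11 (SE 0.15, 95% interval -0.23 to 0.45, limma adjusted p = 0.591), and without *fer-4* replicate 3 it was -0.032. The level of *ABF3* was 1.43, 1.45 and 1.25 times that of *ABF4* in *fer-4*, against 3.41, 3.54 and 2.56 times in Col-0. These ratios lie apart in the genotypes, and the difference between the changes of *ABF3* and *ABF4* was not tested.

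*ABF1* (AT1G49720, chromosome 1, positions 18400003 to 18402628, plus strand), a close relative of ABF4 known to be induced by cold, was at 9.09, 7.65 and 8.28 FPKM in *fer-4* and at 9.72, 9.45 and 7.56 FPKM in Col-0. The groups overlap, and the log2 fold change was -0.09 (SE 0.13, 95% interval -0.38 to 0.21, limma adjusted p = 0.630). *ABI5* (AT2G36270, chromosome 2, positions 15204659 to 15207636, minus strand), the factor that arrests growth of germinating seeds in ABA, was near the lower limit of the test. It was at 0.505, 0.806 and 1.48 FPKM in *fer-4* and at 0.855, 0.675 and 0.453 FPKM in Col-0. The highest and nearly the lowest of the 6 values were both from *fer-4*. Its log2 fold change of 0.36 (SE 0.39, 95% interval -0.53 to 1.25, limma adjusted p = 0.504) rested on *fer-4* replicate 3, and was -0.004 without that library, so the data leave both a moderate rise and a moderate fall possible.

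**Figure D2:**
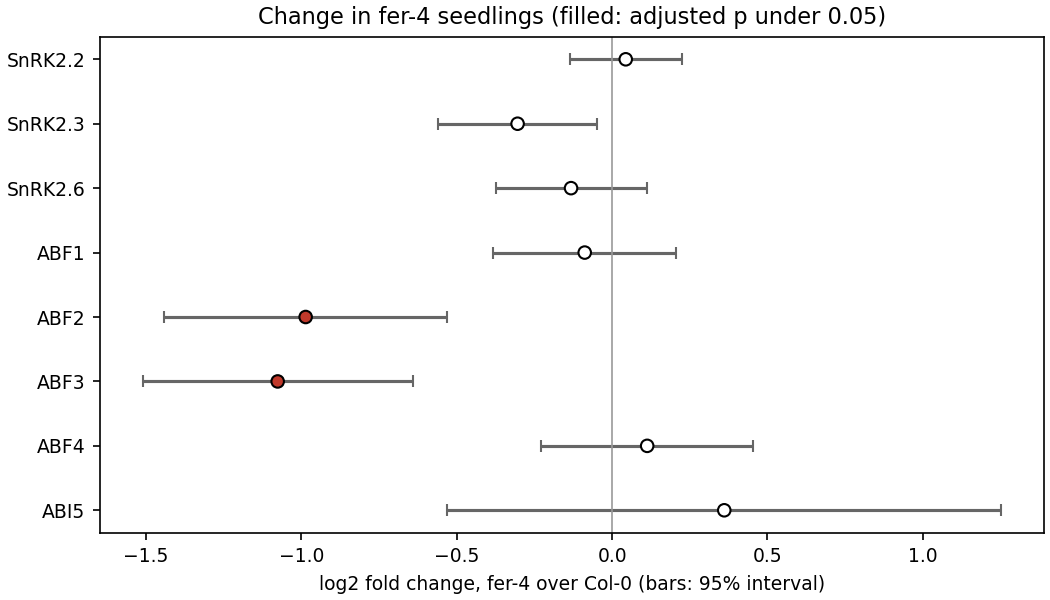
Log2 fold change (*fer-4* relative to Col-0) for the 8 genes, from limma on log2(FPKM + 0.1), with 95% intervals as bars. Filled points passed an adjusted p under 0.05. *ABF2* (-0.99) and *ABF3* (-1.08) are the filled points, and the interval of *ABI5* (-0.53 to 1.25) is the widest.

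The order of the levels differed between the genotypes. In *fer-4*, *SnRK2.2* (58.0 FPKM) stood first and apart from *ABF3* (29.3 FPKM), and *ABF3*, *ABF4* (21.5 FPKM), *SnRK2.3* (19.3 FPKM) and *SnRK2.6* (18.0 FPKM) each overlapped with the next in order. *ABF2* (11.0 FPKM), *ABF1* (8.34 FPKM) and *ABI5* (0.931 FPKM) followed, each apart from its neighbours. In Col-0, *ABF3* (62.9 FPKM) and *SnRK2.2* (56.3 FPKM) overlapped at the top, and *SnRK2.3* (23.7 FPKM), *ABF2* (22.3 FPKM), *SnRK2.6* (19.7 FPKM) and *ABF4* (19.7 FPKM) each overlapped with the next. *ABF1* (8.91 FPKM) and *ABI5* (0.661 FPKM) were last there too. *ABF2* thus lay below the range of *SnRK2.6* and *ABF4* in *fer-4* and overlapped with both in Col-0.

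The 5 factors together were at 61.5, 71.7 and 80.0 FPKM in *fer-4*, against 122, 134 and 87.1 FPKM in Col-0. The means were 71.1 ± 9.25 FPKM in *fer-4* and 114 ± 24.5 FPKM in Col-0 (SD, n = 3 each, exact permutation p = 0.1, 2-sided, the smallest this design gives). The ratio of the summed factors to the summed kinases was 0.650, 0.720 and 0.875 in *fer-4* and 1.28, 1.27 and 0.891 in Col-0 (exact permutation p = 0.1, 2-sided). Neither quantity overlapped between the genotypes, though the gap between *fer-4* replicate 3 and Col-0 replicate 3 was narrow in both. The share of *ABF3* in the summed factors was 40.3%, 43.0% and 40.4% in *fer-4*, against 56.2%, 55.6% and 52.2% in Col-0. That of *ABF4* was 28.1%, 29.7% and 32.4% in *fer-4*, against 16.5%, 15.7% and 20.4% in Col-0. The level of *ABF4* overlapped between the genotypes, so its higher share goes with the lower levels of *ABF2* and *ABF3* in the same sum. *ABF3* was the most abundant factor in each of the 6 libraries, and *ABF4* took second place in *fer-4* while *ABF2* had it in Col-0 replicates 1 and 2.

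**Figure D3:**
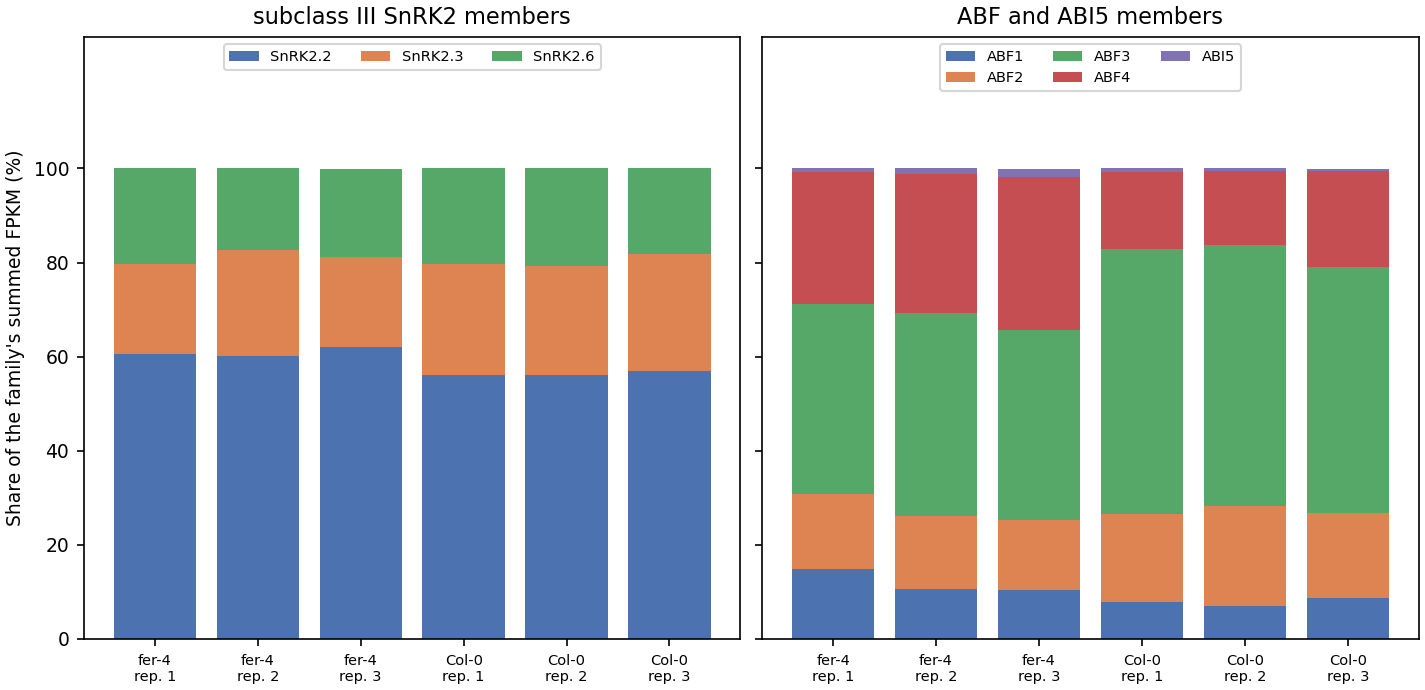
Share (%) of each gene in the summed FPKM of its family, 1 bar per library, with the kinases in the left panel and the factors in the right panel, and *fer-4* left of Col-0 in each. *ABF3* takes 40.3% to 43.0% in *fer-4* and 52.2% to 56.2% in Col-0, and *ABF4* takes 28.1% to 32.4% in *fer-4* and 15.7% to 20.4% in Col-0. Shares within a bar are tied, so a gene's share can differ without a difference in its level.

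The promoters of the 2 factors that fell, and of *ABI5*, are shown because ABF and ABI5 proteins bind the ABRE core, and some of these genes are themselves ABA-responsive. Each stretch is the 300 bases just upstream of the annotated gene start in RefSeq's TAIR10.1 annotation, read 5′ to 3′ on the gene's strand. Capitals mark the ABRE core ACGTG on either strand (CACGT when read on the other), and overlapping cores in the palindrome CACGTG were counted as 1 place. *ABF2* is read from chr1:17167925-17168224 (minus strand), *ABF3* from chr4:16295034-16295333 (plus strand) and *ABI5* from chr2:15207637-15207936 (minus strand).
ABF2: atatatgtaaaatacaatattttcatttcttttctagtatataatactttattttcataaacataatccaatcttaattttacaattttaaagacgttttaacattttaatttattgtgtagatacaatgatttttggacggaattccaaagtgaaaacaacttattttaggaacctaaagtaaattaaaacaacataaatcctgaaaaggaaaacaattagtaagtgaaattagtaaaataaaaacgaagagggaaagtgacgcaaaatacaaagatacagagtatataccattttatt
ABF3: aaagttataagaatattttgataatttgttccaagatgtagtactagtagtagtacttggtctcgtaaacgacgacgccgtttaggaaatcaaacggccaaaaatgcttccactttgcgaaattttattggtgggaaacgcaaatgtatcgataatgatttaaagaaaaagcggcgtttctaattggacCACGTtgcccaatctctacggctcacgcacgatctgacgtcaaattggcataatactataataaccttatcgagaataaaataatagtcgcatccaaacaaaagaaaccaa
ABI5: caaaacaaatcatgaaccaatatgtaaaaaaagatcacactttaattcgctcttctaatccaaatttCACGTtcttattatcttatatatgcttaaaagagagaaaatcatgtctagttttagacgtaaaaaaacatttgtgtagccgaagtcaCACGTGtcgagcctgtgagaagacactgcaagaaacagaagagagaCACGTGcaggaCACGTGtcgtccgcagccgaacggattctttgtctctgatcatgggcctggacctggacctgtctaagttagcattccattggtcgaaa
The *ABF2* stretch holds no core, nor do the 1000 bases upstream of its start. *ABF3* holds 1 core in this stretch, 106 bases before the gene start, and 3 cores in 1000 bases. *ABI5* holds 4, of which 3 are palindromic. Of the other members, *SnRK2.3* and *ABF1* have 2 each and *ABF4* has 1, and *SnRK2.2* and *SnRK2.6* have 0 in 300 bases. A core is present in 25.6% of 27443 promoters of this length, and in 54.4% of those of 1000 bases. At least 3 places, as in *ABI5*, occur in 1.32% of the promoters of 300 bases. The pair that fell together therefore did not share these letters, and a match or its absence is a description of the sequence and not of binding.

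Overlapping genes limit 4 of the measurements, since neither the methods nor the labels state whether counting used the strand. The 3′ ends of *SnRK2.3*, *ABF1*, *ABF3* and *ABF4* overlap genes on the opposite strand. The neighbour of *ABF3* (AT4G34020) was at 12.2, 13.3 and 14.8 FPKM in *fer-4* and at 13.9, 14.2 and 15.3 FPKM in Col-0 (log2 fold change -0.11, limma adjusted p = 0.431). These levels overlap and lie under those of *ABF3* in every library. The neighbours of *ABF1* (AT1G49730, 11.7 ± 1.46 FPKM in *fer-4* and 11.1 ± 1.26 FPKM in Col-0, SD, n = 3 each) and *ABF4* (AT3G19300, 1.73 ± 0.521 FPKM in *fer-4* and 2.13 ± 0.219 FPKM in Col-0, SD, n = 3 each) were not called, and that of *SnRK2.3* (AT5G66890) was listed at 0 in all 6 libraries. *SnRK2.3*, *ABF1* and *ABF4* each overlap 1 more opposite-strand gene in the annotation (AT5G09785, AT1G07587 and AT3G03815), for which no values were analysed here. *ABF2*, *ABI5*, *SnRK2.2* and *SnRK2.6* overlap no other gene in that annotation.

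The genes whose level followed each member most closely were taken by Pearson's r over the 6 samples among genes averaging 5 FPKM or more. With 3 samples of each genotype, r describes these 6 libraries and is set largely by the genotype where a gene differs between them. For *ABF2* the closest was *HAB1* (AT1G72770, r = 0.995), a clade A PP2C that acts on SnRK2 kinases, followed by AT1G73390 (r = 0.994) and the inactive beta-amylase gene AT5G55700 (r = 0.993). For *ABF3* they were AT4G22990 (r = 0.995), an SPX domain membrane protein gene, AT1G16520 (r = 0.994) and *ECT8* (AT1G79270, r = 0.994). *ABF3* had 117 genes and *ABF2* 105 genes at r of at least 0.95, whereas *SnRK2.2* had 4, *SnRK2.6* 11, *ABF1* 9, *ABF4* 16, *ABI5* 8 and *SnRK2.3* 78.
*SnRK2.6* was closest to the dehydrin gene *LTI30* (AT3G50970, r = 0.984), then AT3G57010 (r = 0.980) and AT4G00520 (r = 0.979), and *SnRK2.3* to the plastid gene *NDHJ* (r = 0.997), AT5G19600 (r = 0.996) and AT5G47520 (r = 0.994). *SnRK2.2* was closest to the casein kinase gene AT4G14340 (r = 0.964), AT3G02468 (r = 0.963) and AT3G54290 (r = 0.959). *ABF1* was closest to the expansin gene *EXPA16* (r = 0.990), the aquaporin gene AT2G37180 (r = 0.981) and AT3G25290 (r = 0.972). *ABF4* was closest to another casein kinase gene, AT4G26100 (r = 0.997), AT5G19485 (r = 0.977) and AT4G27650 (r = 0.977), and *ABI5* to the autophagy protease gene AT3G59950 (r = 0.985), AT3G17770 (r = 0.977) and AT3G61180 (r = 0.969).

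Of the 7 other SnRK2 genes, all tested, 1 rose and 1 fell, against 18.0% and 16.0% of all genes tested. *SnRK2.9* was at 15.5, 9.44 and 9.85 FPKM in *fer-4*, against 7.85, 7.09 and 7.36 FPKM in Col-0 (log2 fold change 0.60, SE 0.18, limma adjusted p = 0.0367), with *fer-4* replicate 1 well above the others, and the call was lost when any 1 Col-0 library was left out (adjusted p = 0.0827 to 0.109 from limma), with quantile normalization or median scaling, and without an intensity trend. *SnRK2.7* was at 5.20, 4.46 and 3.07 FPKM in *fer-4*, against 7.27, 10.4 and 5.36 FPKM in Col-0 (log2 fold change -0.82, SE 0.27, limma adjusted p = 0.0441). Its call was lost without Col-0 replicate 1 or 2 or *fer-4* replicate 2 or 3, where the log2 fold change was between -0.88 and -0.58, and with no intensity trend or no filter on low values. The median of the 7 was 0.02 on the log2 scale, against -0.01 for all genes tested. Of 8 other group A bZIP genes, 5 were tested and 0 were called by limma, and 1 was higher and 0 lower at an unadjusted p under 0.05. Their log2 fold changes lay between -0.28 and 0.26, none as low as those of *ABF2* and *ABF3*.

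Of 15 genes for RAF-type kinases, listed as upstream of SnRK2 kinases of any subclass, 1 fell and 0 rose. These calls stand beside 16.0% lower and 18.0% higher over all genes tested. At an unadjusted p under 0.05, 3 were lower and 0 higher. Their median log2 fold change was -0.27. The summed level of the 15 was 97.55 to 151.7 FPKM in *fer-4*, lowest in replicate 1, and 145.6 to 156 FPKM in Col-0. *RAF35* was at 4.18, 7.12 and 6.16 FPKM in *fer-4*, against 10.5, 11.7 and 8.31 FPKM in Col-0 (log2 fold change -0.81, SE 0.21, limma adjusted p = 0.0182), and the call was lost without Col-0 replicate 1 (-0.78, adjusted p = 0.0682 from limma) or 2 (-0.71, adjusted p = 0.0716 from limma). Without *fer-4* replicate 1 its log2 fold change was -0.60 and the call stayed. Of the PYR/PYL receptor genes, 10 of 14 were tested, of which 2 rose and 1 fell, with a median log2 fold change of -0.05. *PYL7* rose to 36.6 ± 1.79 FPKM in *fer-4*, against 21.3 ± 2.69 FPKM in Col-0 (SD, n = 3 each, log2 fold change 0.78, limma adjusted p = 0.00101), and *PYL9* fell (-0.39, limma adjusted p = 0.0380), a call that was lost without an intensity trend and when any 1 library other than *fer-4* replicate 1 was left out (adjusted p = 0.0573 to 0.136 from limma). The other that rose, *PYL3*, named here after its values were seen, was at 1.26 FPKM in *fer-4* and 0.0575 FPKM in Col-0, so it passed the filter only through *fer-4*, and 1 receptor gene rose among those averaging 1 FPKM or more. Without Col-0 replicate 3, 3 receptor genes rose and 0 fell, as *PYL5* gained a call and *PYL9* lost its call. Of the clade A PP2C genes, which hold SnRK2 kinases inactive, 6 of 8 tested fell and 0 rose (0 higher also at an unadjusted p under 0.05), with a median log2 fold change of -0.94. The lowest were *HAI1* (-2.32), *HAI2* (-2.03) and *PP2CA* (-1.06) among those averaging 1 FPKM or more. The counts at an adjusted p under 0.05 stand beside 16.0% lower and 18.0% higher over all genes tested. Col-0 replicate 3 was the lowest Col-0 library for all 8, and 7 fell without it, against 3 without Col-0 replicate 1 and 4 or 5 with any other library left out. The calls of *AHG1*, *ABI2* and *HAB1* were those lost without Col-0 replicate 1.

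Around *ABI5*, 8 of 10 genes for its partners and for its turnover were tested, and 0 were called by limma (1 higher and 1 lower at an unadjusted p under 0.05). *AFP1*, a corepressor gene named here for its spread, was at 5.94, 4.82 and 6.26 FPKM in *fer-4* and at 22.5, 31.6 and 5.25 FPKM in Col-0, where replicate 3 fell within the *fer-4* range. Its log2 fold change was -1.45 (SE 0.56, limma adjusted p = 0.0823). *AFP1* and *AFP3* were both called lower without Col-0 replicate 3. *ABI3*, the seed factor that works with ABI5, was at 0.0404 FPKM in *fer-4* and 0.0255 FPKM in Col-0, and *ABI4* was listed at 0 in every library.

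**Figure D4:**
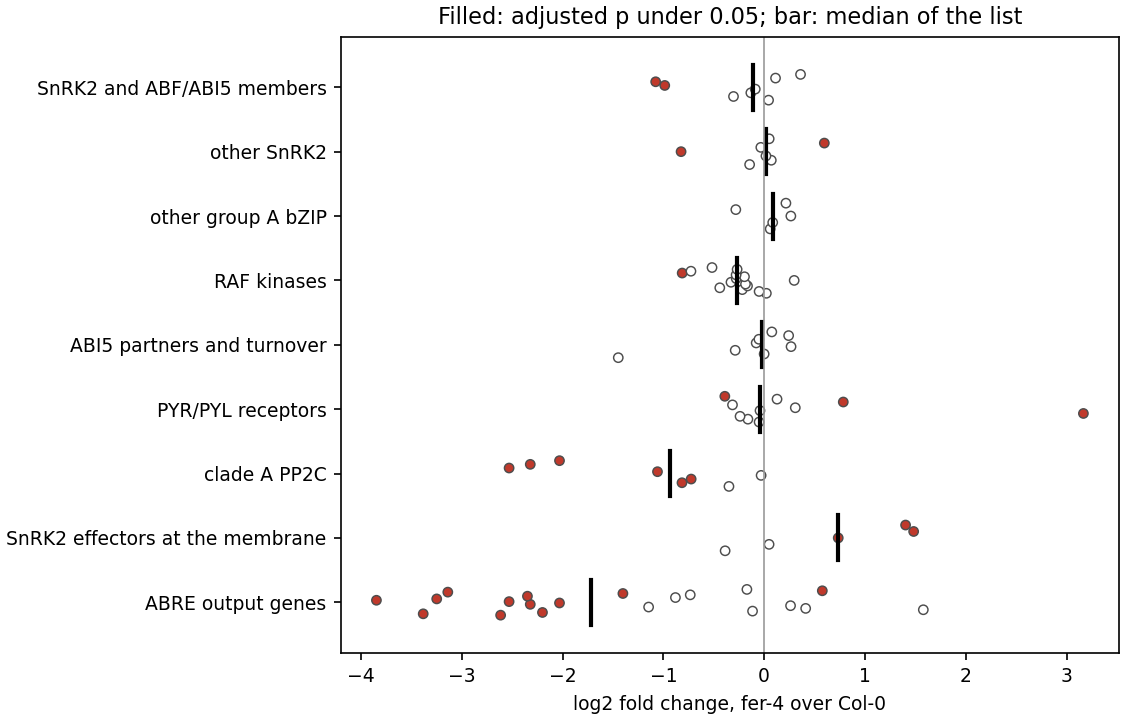
Log2 fold change (*fer-4* relative to Col-0) for the 8 members (top) and for genes of each related list, 1 point per gene tested, filled where the limma adjusted p was under 0.05, with the list's median as a bar. The medians of the receptors (-0.05) and other SnRK2 genes (0.02) lie near 0, and those of the clade A PP2C (-0.94) and ABRE output genes (-1.71) lie below it.

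Of 5 genes listed here as effectors of SnRK2.6 at the plasma membrane, 3 rose and 0 fell, against 18.0% and 16.0% of all genes tested. At an unadjusted p under 0.05, 1 was lower. Whether SnRK2.6 acts on each encoded protein in these seedlings was not tested. The NADPH oxidase gene *RBOHD* was at 33.6, 45.4 and 55.6 FPKM in *fer-4*, against 14.9, 15.1 and 17.0 FPKM in Col-0 (log2 fold change 1.48, SE 0.17, limma adjusted p = 3.9e-04). *RBOHF* was at 17.1, 24.1 and 26.3 FPKM in *fer-4*, against 8.55, 8.29 and 8.06 FPKM in Col-0 (1.40, SE 0.16, limma adjusted p = 3.3e-04). Both oxidase genes lay above Col-0 in every *fer-4* library. The potassium channel gene *KAT1* rose too (0.73, SE 0.15, limma adjusted p = 0.00613), and the anion channel genes *SLAC1* (-0.39, limma adjusted p = 0.0602) and *SLAH3* (0.05, limma adjusted p = 0.805) were not called. *SLAC1* was called lower with quantile normalization, median scaling, no intensity trend or without *fer-4* replicate 1. The rises of *RBOHD*, *RBOHF* and *KAT1* run opposite to the falls of *ABF2* and *ABF3* in the same libraries. For *SLAC1*, all *fer-4* libraries lay below all Col-0 libraries, the direction of these factors.

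Of 22 ABRE output genes, which ABF factors are known to activate or which carry ABREs, 20 were tested, of which 11 fell and 1 rose, against 16.0% and 18.0% of all genes tested. Their median log2 fold change was -1.71. Like the other lists, this list was chosen with earlier results of these data known, so its counts beside all genes are a description. *LEA7*, a late embryogenesis abundant protein gene, was at 9.49, 4.88 and 5.26 FPKM in *fer-4*, against 77.6, 185 and 52.8 FPKM in Col-0 (log2 fold change -3.85, SE 0.44, limma adjusted p = 3.7e-04). *RD29B*, whose promoter is the standard ABRE reporter, was at 5.03, 2.49 and 3.08 FPKM in *fer-4*, against 33.4, 74.5 and 19.0 FPKM in Col-0 (-3.38, SE 0.46, limma adjusted p = 9.1e-04). AT3G17520, a further late embryogenesis abundant protein gene, was at 5.34, 3.39 and 3.09 FPKM in *fer-4*, against 35.4, 77.5 and 18.8 FPKM in Col-0 (-3.25, SE 0.45, limma adjusted p = 0.00107). All 3 were lower in every *fer-4* library than in any Col-0 library and fell further than *ABF2* and *ABF3*. The gene that rose was *ADH1*, alcohol dehydrogenase, at 65.0, 53.4 and 71.8 FPKM in *fer-4*, against 37.2, 44.4 and 45.4 FPKM in Col-0 (0.58, SE 0.13, limma adjusted p = 0.0102). Of the list, 3 genes are also clade A PP2C genes that fell (*AHG1*, *HAI1* and *HAI2*). *AHG1*, at 0.0804 FPKM in *fer-4* and 1.36 FPKM in Col-0, passed the filter only through Col-0, and among genes averaging 1 FPKM or more 10 output genes and 5 clade A PP2C genes fell.

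The Col-0 libraries varied in the output genes as in *ABF2* and *ABF3*. Col-0 replicate 2 was the highest and replicate 3 the lowest of the Col-0 libraries for *ABF2* and *ABF3*, and for 19 and 18 of the 20 output genes tested. Over all genes tested, these shares were 32.3% and 31.6%. In Col-0 replicate 3, *ABF3* was at 0.635 and *ABF2* at 0.615 of the mean of Col-0 replicates 1 and 2, *RD29B* was at 0.352 and *LEA7* at 0.402. The *fer-4* means were 0.644 of Col-0 replicate 3 for *ABF3* and 0.694 for *ABF2*, and for the 20 output genes they ran between 0.124 (*LEA7*) and 10.2 (*RD20*), below 1 for 12 and above 1 for 8. Without Col-0 replicate 3, 14 of the 20 output genes fell and 1 rose, with a median of -1.98, and with any other library left out 9 fell. Without Col-0 replicate 2, 3 rose.

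**Figure D5:**
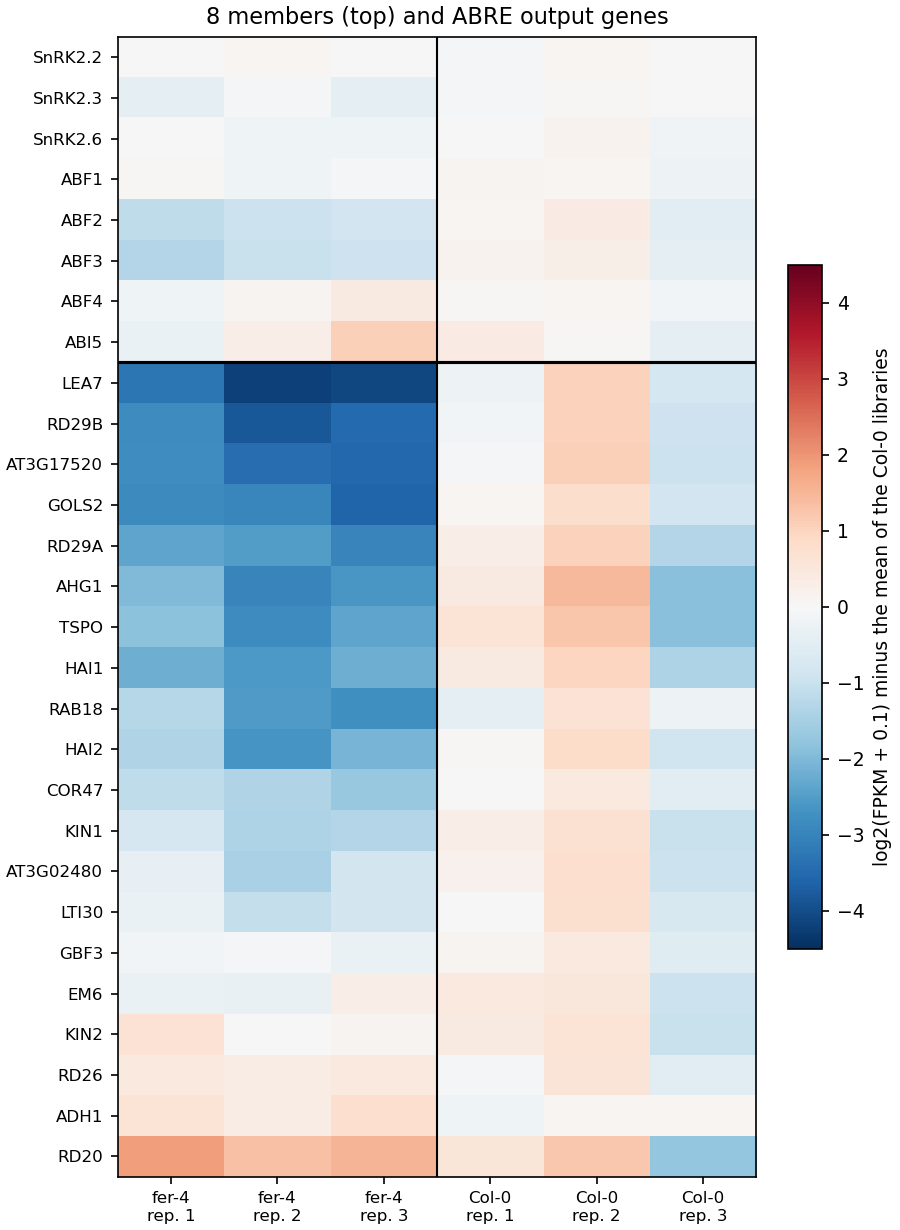
Level of the 8 members (above the line) and of the ABRE output genes tested (below it) in each library, as log2(FPKM + 0.1) minus the mean of the 3 Col-0 libraries, with *fer-4* in the left columns and Col-0 in the right columns. *ABF2*, *ABF3* and most output genes are blue (lower) in all *fer-4* libraries, and Col-0 replicate 3 is the lowest of the Col-0 libraries for 18 of the 20 output genes.

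Marker genes of cell types were compared because SnRK2.6 is best known from guard cells and the samples were whole seedlings. Of 6 guard cell markers, *FAMA* and *KAT1* (also an effector above) rose and *GORK* fell. All *fer-4* libraries lay above all Col-0 libraries for 2 of the 6 and below them for 3, against 26.1% and 25.1% of all genes tested. The markers were thus split in direction. The summed level of the 6 was 34.8 to 41.4 FPKM in *fer-4* and 30.3 to 34.3 FPKM in Col-0, while *SnRK2.6* was not called. Of 6 root markers, 4 fell and 0 rose (2 fell without Col-0 replicate 3), with a summed level of 127 to 155 FPKM in *fer-4* and 191 to 207 FPKM in Col-0. All marker counts given here stand beside 18.0% higher and 16.0% lower over all genes tested, and each marker list is short. Of 4 green leaf markers, 1 fell (*CA1*, log2 fold change -1.20, limma adjusted p = 7.8e-04) and 0 rose. The summed level of the leaf markers was 23350 to 28020 FPKM in *fer-4* and 32090 to 34480 FPKM in Col-0. Of 3 phloem markers, 1 rose (*APL*, 0.86, limma adjusted p = 0.00297) and 0 fell. The 4 seed markers, which matter for *ABI5*, summed to 0.359 to 1.55 FPKM in *fer-4* and 0 to 0.303 FPKM in Col-0, and *SESA3* was listed at 0 in all libraries. *SHR* (0.14) and *SCR* (-0.08) were the root markers not called. The summed root and green leaf marker levels were lower in *fer-4*, as were *ABF2* and *ABF3*. The part of either tissue in the fall of these factors was not tested.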

How the data were processed

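Whole seedlings of *fer-4* and Col-0 gave 3 RNA-seq libraries each, grouped by the genotype in the labels. Light intensity is 154 in the labels, in mmol per square metre and second, where the paper has μmol. The authors deposited 1 FPKM value per gene in each library, made with STAR 2.5 and Cufflinks 2.2.1 on TAIR10, as the submitters' processing notes name them. A second sheet holds the authors' own fold changes and p-values and was not used. The totals were between 910619 and 1058751 FPKM. No counts were used, low values gave no clear whole-read steps, and depth is unknown. Genes averaging 0.5 FPKM or more were tested on log2(FPKM + 0.1) with limma 3.58.1 in R 4.3.3 (intensity trend, 2-sided, Benjamini-Hochberg), tested first on simulated data. There it recovered 6.67% of 1.5-fold, 63.3% of 2-fold and 95.2% of 4-fold changes. Far fewer genes were changed there than were called here. A gene that was not called can therefore still have changed. Positions and promoters are from RefSeq TAIR10.1 (Python 3.11.15). Named genes were all members, *FER*, up to 3 called higher and 3 lower from each of 8 lists at a mean of at least 1 FPKM, and the 3 most alike per member. Other genes are named as such. The members and lists were chosen with earlier results of these data known. Alternatives were other pseudocounts, filters and scalings, no trend, a replicate block and each library left out.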

Additional observations from a re-analysis of the deposited data

How the results depend on the processing

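Over the 14 alternatives, *ABF2* (log2 fold change -1.22 to -0.79, adjusted p = 0.00109 to 0.0304) and *ABF3* (-1.29 to -0.94, adjusted p = 7.1e-04 to 0.0191) stayed called lower by limma, and 0 members were called higher. *SnRK2.3* joined them under 3 alternatives. The signs of members that were not called turned for *SnRK2.2* (-0.055 with quantile normalization, -0.012 with median scaling), *ABF4* (-0.032 without *fer-4* replicate 3 and 0.260 without *fer-4* replicate 1, the extremes with 1 library left out) and *ABI5* (-0.004 and 0.689 without the same libraries). *ABI5* could not be tested at a mean of at least 1 FPKM. With 1 library left out, 2430 to 3976 genes were called higher and 1932 to 3705 lower, the fewest without Col-0 replicate 1. Of all calls, 53.0% were higher, against 42.2% with quantile normalization and 44.3% with median scaling, which moved the median log2 fold change of all genes by -0.068 and -0.055. Same-numbered samples did not deviate together over all genes tested (r = -0.0444, 0.0426 and -0.066). This showed no pairing by number, but a value over all genes cannot exclude it for some of them. With the replicate block, 0 members were called higher and 2 lower, and 3404 genes were called higher and 2986 lower. The summed factors differed by -57.2 to -33.6 FPKM and the summed kinases by -6.61 to -1.42 FPKM (*fer-4* minus Col-0) with 1 library left out, and by -47.3 and -8.20 FPKM with median scaling. The paper calls the samples biological replicates. Their number limits the precision, and no counting error can be given without counts.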
